A study of Mus musculus with 20 samples.

Results

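The genes described here are 45 genes of the cell division cycle, taken as the rows of a table of normalized read counts whose gene name stands on a fixed list, out of 53380 genes in the table. They comprised 19 genes of S phase and its entry (replication genes), 23 genes of mitosis and 3 D cyclins, and the comparison between the first 2 sets runs through the results. All 45 had a normalized count of at least 10 in at least 3 of the 20 libraries and were tested among 17204 genes. The study asked how keratinocytes of the mouse dorsal epidermis that carry Thy1 at their surface differ from those that do not, from hair follicle stem cells and from epidermal T cells. Bulk RNA-seq was made from 5 populations obtained by fluorescence-activated cell sorting.

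The populations were 4 libraries of Thy1hi cells (labelled Thy1+ScaI+, integrin-α6-positive keratinocytes), 4 of Thy1- cells (Thy1-ScaI+ keratinocytes), 4 of hair follicle stem cells (HFSCs, CD34+ScaI-), 5 of dendritic epidermal T cells (DETCs, Thy1+ScaI-) and 3 of Thy1hi cells that carried the lineage reporter, here called YFP+ cells. The labels give the genotype Thy1.2CreERT2-Rosa26-EYFP and no treatment for every sample, and an age that rises by a week per sample from 8 to 27 weeks (20 to 23 weeks for Thy1hi cells, 24 to 27 for Thy1- cells, 8 to 11 for HFSCs, 12 to 16 for DETCs and 17 to 19 for YFP+ cells). The methods of the study instead give wild-type mice of 8 weeks for the first 4 populations and induced reporter mice for the YFP+ cells, so age and genotype are uncertain here and, as labelled, age cannot be told apart from population. The reporter is switched on by an inducible Cre under Thy1 regulatory sequence. The label of the YFP+ cells reads ScaI-, whereas their titles and the methods give Sca1-positive cells. Some sorts pooled mice and the number of mice behind each library is unclear, so p-values measure the spread between these libraries, which may not be that between mice.

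A dividing cell first copies its DNA and then separates the copies. Replication begins when the MCM helicase, loaded in G1, is switched on at origins, and it draws on the nucleotide supply and on the sliding clamp that holds the polymerase. Mitosis runs on cyclin A, cyclin B and Cdk1, on the Plk and Aurora kinases, on spindle motors and kinetochores, and ends when the anaphase-promoting complex has the cyclins degraded. Genes of the G1/S transition are known targets of E2F factors, and genes of G2 and mitosis are known targets of complexes that act through CHR elements and CCAAT boxes. D cyclins link growth signals to the cycle and are made in many cells that are not dividing. In the epidermis the dividing keratinocytes lie in the basal layer.

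Libraries held 7781256 to 12982393 reads on genes, of which Rn45s, a ribosomal gene, took 13.1% to 41.5%. One library, Thy1- replicate 4, held 3212 genes out of row order as deposited; these were put back, and Plk1, a mitotic kinase, was the only member to change, from 895 normalized counts to 37.7. Markers fitted the labels: 5 T cell genes summed to 8909 to 15862 normalized counts in DETCs and to 68.8 to 246 elsewhere, and 6 HFSC genes to 5771 to 9218 in HFSCs and to 397 to 2131 elsewhere. DETC libraries also held keratinocyte RNA, with 6 basal keratinocyte genes summing to 11941 to 56893 normalized counts against 183893 to 255461 in Thy1hi cells. Replicate 4 of the HFSCs had the lowest Rn45s share (13.1%), and DETC library a, a DETC library whose number matches no label, had the fewest reads. Libraries numbered 4 stood apart among the members, so the results are also given without them.

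Promoter sequence is shown because the replication and mitosis genes are known targets of different promoter elements. Of the 45 members, 35 had a RefSeq promoter window (GRCm38.p6, the mm10 build) of 250 bases before to 50 bases after a start site. Those without one were Mcm4, Mcm7, Gins2, Ccne2, Ccna2, Aurkb, Kif20a, Tpx2, Ccnd1 and Ccnd2. In 23 of the 35 windows, bases just after the start site were found in a transcript of the gene. The windows of Cdc6 and E2f1 lay inside the gene's position in the count table, so start sites are uncertain for some members. Windows were searched on both strands for E2F letters (TTTCCCGC, TTTGGCGC, TTTCGCGC or TTTGCCGC), CHR letters (TTTGAA or TTCGAA) and CCAAT, and matches of one kind may overlap. E2F letters were in 6 of 15 replication windows (40%) and 1 of 19 mitosis windows (5.26%), against 2.99% of 15928 windows of all genes. CHR letters were in 1 of 15 replication windows (6.67%) and 15 of 19 mitosis windows (78.9%), against 17.1% of all. CCAAT was in 9 of 15 (60%) and 16 of 19 (84.2%), against 38.6% of all, and CHR letters together with CCAAT were in 14 of 19 mitosis windows (73.7%), against 7.04% of all. A match describes the letters and does not show that a factor binds there. The 250 bases before the start site follow for a pair of replication genes and 3 mitosis genes, 5′ to 3′ on the gene's strand, with the matched letters in capitals. In Mcm6 and Mcm5 each long run of capitals holds a pair of overlapping E2F matches, 1 on each strand.
Mcm6, chr1:128359706-128359955, minus strand: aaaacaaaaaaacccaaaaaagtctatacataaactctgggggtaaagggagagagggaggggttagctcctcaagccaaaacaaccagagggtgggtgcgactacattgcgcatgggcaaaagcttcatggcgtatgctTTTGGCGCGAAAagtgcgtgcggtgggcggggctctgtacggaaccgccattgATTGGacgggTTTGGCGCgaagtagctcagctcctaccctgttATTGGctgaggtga
Mcm5, chr8:75109259-75109508, plus strand: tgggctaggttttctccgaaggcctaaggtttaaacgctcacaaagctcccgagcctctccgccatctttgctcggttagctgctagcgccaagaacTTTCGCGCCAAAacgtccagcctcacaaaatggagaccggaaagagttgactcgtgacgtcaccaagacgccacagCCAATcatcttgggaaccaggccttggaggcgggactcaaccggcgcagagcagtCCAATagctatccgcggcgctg
Cdk1, chr10:69352913-69353162, minus strand: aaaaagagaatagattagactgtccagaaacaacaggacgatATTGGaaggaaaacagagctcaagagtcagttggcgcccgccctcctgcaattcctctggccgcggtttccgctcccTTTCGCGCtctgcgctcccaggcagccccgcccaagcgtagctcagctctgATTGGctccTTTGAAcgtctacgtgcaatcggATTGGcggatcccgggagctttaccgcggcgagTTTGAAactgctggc
Top2a, chr11:99024190-99024439, minus strand: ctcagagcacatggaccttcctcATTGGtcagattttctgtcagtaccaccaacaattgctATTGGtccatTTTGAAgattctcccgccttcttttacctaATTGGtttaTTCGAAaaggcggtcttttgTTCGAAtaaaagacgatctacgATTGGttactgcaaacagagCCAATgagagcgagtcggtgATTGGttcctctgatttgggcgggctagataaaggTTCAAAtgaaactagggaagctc
Mki67, chr7:135716380-135716629, minus strand: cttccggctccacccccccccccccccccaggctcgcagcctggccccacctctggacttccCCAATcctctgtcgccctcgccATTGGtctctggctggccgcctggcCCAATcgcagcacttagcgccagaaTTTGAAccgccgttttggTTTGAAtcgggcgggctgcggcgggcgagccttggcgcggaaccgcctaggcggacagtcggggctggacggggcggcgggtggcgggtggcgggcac

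The proliferation marker Mki67 (ENSMUSG00000031004, chromosome 7 from 135689784 to 135716361 in mm10) had 4848, 4237, 5680 and 3117 normalized counts in the Thy1hi libraries, replicates 1 to 4. In the same order, Thy1- libraries had 1940, 3727, 2441 and 1926, and HFSC libraries had 825, 941, 897 and 959. YFP+ libraries had 3977, 4646 and 7526, and DETC libraries (1, 2, 3, a and b) had 973, 1343, 972, 1227 and 1632. Every Thy1hi, Thy1- and YFP+ library lay above every HFSC and DETC library, and a single Thy1- library, replicate 2, reached the range of the Thy1hi libraries. Top2a (ENSMUSG00000020914, chromosome 11 from 98992943 to 99024189), the topoisomerase that untangles chromosomes before they part, had 2173, 1859, 2239 and 1816 in Thy1hi cells and 946, 1391, 932 and 1038 in Thy1- cells. It had 506, 467, 406 and 427 in HFSCs, 1526, 1967 and 2841 in YFP+ cells, and 434, 559, 365, 620.2 and 591 in DETCs. The Thy1hi and Thy1- libraries did not overlap for Top2a.

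Mcm2 (ENSMUSG00000002870, chromosome 6 from 88883474 to 88898780), a subunit of the replicative helicase, had 629, 441, 506 and 689 normalized counts in Thy1hi cells and 269, 274, 274 and 520 in Thy1- cells. It had 254, 226, 235 and 102 in HFSCs, 677, 406 and 446 in YFP+ cells, and 186, 227, 216, 123 and 174 in DETCs. Replicate 4 of the Thy1- cells reached the Thy1hi range and replicate 4 of the HFSCs was the lowest of all 20 libraries. In bulk libraries, fewer cells in cycle and less of these RNAs per cycling cell cannot be told apart.

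**Figure D1:**
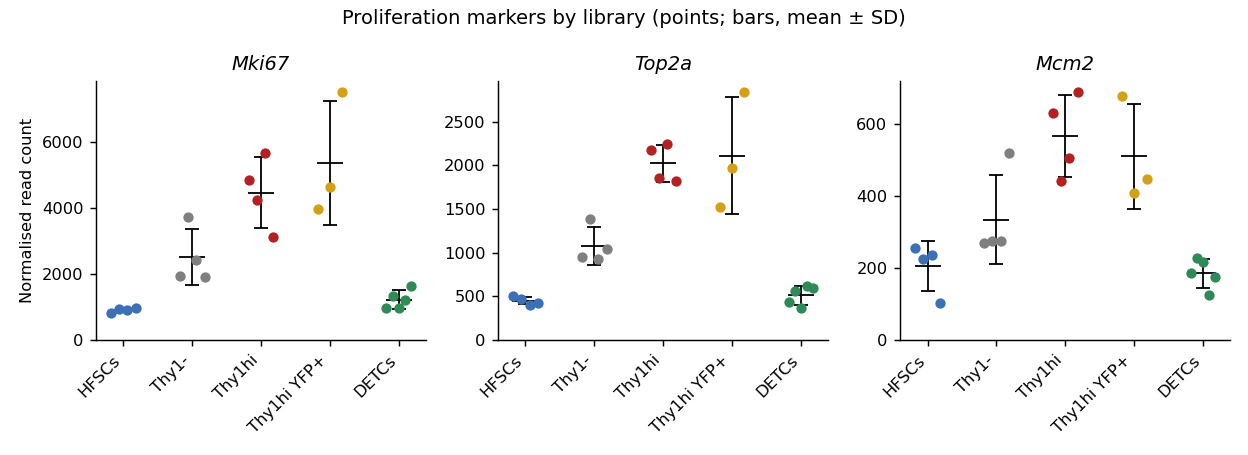
Normalized read counts of Mki67, Top2a and Mcm2 (vertical axes, from 0) in each of the 20 libraries (points) of the 5 populations, with the mean and SD as bars. By mean, Thy1hi and YFP+ cells are highest for all 3 genes, Thy1- cells are between, and HFSCs and DETCs are lowest, with Thy1- replicate 4 at 520 for Mcm2 inside the Thy1hi range.

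In the 3 keratinocyte populations sorted on Thy1 and Sca1, mitosis genes on average stood further above HFSCs and DETCs than replication genes did. The mean log2 level of the mitosis genes, taken relative to the mean of the HFSC libraries, was 2.08 ± 0.19 (SD, n = 4) in Thy1hi cells, 1.20 ± 0.30 (n = 4) in Thy1- cells, 2.45 ± 0.36 (n = 3) in YFP+ cells and -0.16 ± 0.35 (n = 5) in DETCs. For the replication genes it was 1.24 ± 0.28, 0.46 ± 0.30, 1.20 ± 0.22 and 0.05 ± 0.15. The mitosis mean exceeded the replication mean by 0.48 to 1.25 in the Thy1hi libraries, by 0.21 to 1.18 in the Thy1- libraries and by 0.69 to 1.60 in the YFP+ libraries, against -0.17 to 0.19 in HFSCs and -0.46 to 0.10 in DETCs. Every library of the 3 keratinocyte populations sorted on Thy1 and Sca1 thus lay above every HFSC and DETC library in this difference, by a narrow margin between Thy1- replicate 4 (0.21) and HFSC replicate 4 (0.19). Replicate 4 was the library with the smallest excess in both the Thy1hi (0.48) and the Thy1- cells (0.21), with a high replication mean of 1.52 and 0.89. These are means over members and carry no test.

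**Figure D2:**
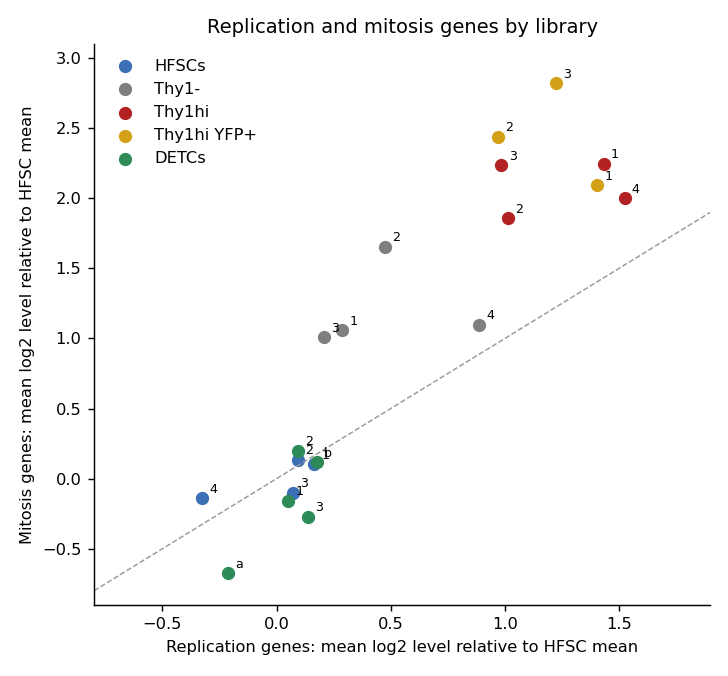
Mean log2 level of the 19 replication genes (horizontal axis) and of the 23 mitosis genes (vertical axis) in each library, both relative to the mean of the HFSC libraries, with points labelled by replicate and a dashed line of equality. HFSC and DETC libraries lie near the origin and the line, and the Thy1hi, Thy1- and YFP+ libraries lie above the line by 0.21 to 1.60.

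Comparing Thy1hi with Thy1- cells asks how the cycling program differs between Sca1-positive keratinocytes with and without Thy1. All 45 members had a higher fitted level in Thy1hi cells, but with limma on all populations only 2, Anln and Top2a, passed the test, where 0.116% of all 17204 genes were called higher and 0.221% lower. The median log2 fold change was 0.76 over the replication genes (15 of 19 at an unadjusted p under 0.05, none called), 0.88 over the mitosis genes (19 of 23, 2 called) and 0.54 over the D cyclins (2 of 3, none called), against -0.02 over all genes tested, of which 7.22% had an unadjusted p under 0.05 in either direction. Libraries of both populations with the same replicate number deviated together (correlation 0.293 to 0.716), and some with different numbers did too (-0.651 to 0.514). The choice to pair by number rests on these same data. With the replicate number as a block in a fit of these libraries 31 members were called higher: 14 of 19 replication genes, 15 of 23 mitosis genes and 2 of 3 D cyclins. In that fit 3.42% of all genes were called higher and 3.19% lower. Rescaling to the same total moved the calls over all genes without the block from 20 higher and 38 lower to 8 and 32. On whole reads DESeq2 called 4 replication and 6 mitosis genes higher and edgeR called none and 1. Over all 17204 genes DESeq2 called 100 higher and 110 lower, and edgeR 14 and 30.

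The MCM helicase genes Mcm2 to Mcm7 rose together in the blocked fit (6 of 6), with log2 fold changes from 0.59 to 0.92. Mcm6 (chromosome 1 from 128331590 to 128359664) had 733, 591, 741 and 1015 normalized counts in Thy1hi cells and 347, 359, 438 and 724 in Thy1- cells. Replicate 4 of the Thy1- cells overlapped the Thy1hi libraries, and within each pair the Thy1hi library was higher (log2 fold change 0.76, SE 0.23, adjusted p 0.228, or SE 0.12 and adjusted p 0.00392 with the block). Mcm2 rose by 0.80 (adjusted p 0.396, or 0.00677 with the block).

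Among the licensing and firing factors, Cdt1 (chromosome 8 from 122568015 to 122573554), which loads the helicase, had 257, 221, 153 and 288 in Thy1hi cells and 140, 130, 74.2 and 182 in Thy1- cells. The populations overlapped, and Cdt1 differed by 0.83 (SE 0.13, adjusted p 0.00466 with the block and 0.603 without). Of the same subset, Cdc6 (0.76) and Gins2 (0.62) were not called in either fit. Of the sliding clamp and its loader neither was called: Pcna, the clamp, had 199, 190, 163 and 233 in Thy1hi cells and 168, 130, 113 and 171 in Thy1- cells (0.44, adjusted p 0.0766 with the block), and Rfc4, a loader subunit, had the smallest difference of all members (0.16).

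The genes of deoxynucleotide synthesis, Rrm1, Rrm2 and Tyms, were called in the blocked fit (3 of 3). Rrm1 (chromosome 7 from 102441695 to 102469771), the large subunit of ribonucleotide reductase, had 848, 631, 664 and 846 in Thy1hi cells and 429, 432, 429 and 522 in Thy1- cells, with no overlap (0.71, exact permutation p 0.0286, the smallest that 4 against 4 libraries allow). Uhrf1 (chromosome 17 from 56303321 to 56323486), which carries DNA methylation over to the new strand, had 776, 522, 667 and 931 against 253, 369, 300 and 523. It differed by 1.02 (adjusted p 0.00466 with the block), and only Thy1- replicate 4 overlapped the Thy1hi libraries. Of the G1/S regulators, Ccne2 (cyclin E2), E2f1 and E2f2 were called with the block and Ccne1 was not. Ccne2 had 119, 89.6, 83.7 and 104 in Thy1hi cells and 34.1, 72.9, 30.8 and 65.6 in Thy1- cells (1.04, SE 0.25, adjusted p 0.038 with the block).

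Among the mitosis genes Anln (ENSMUSG00000036777, chromosome 9 from 22332012 to 22389188), the anillin that organizes the ring of cytokinesis, differed most. It had 1134, 1021, 1250 and 1040 normalized counts in Thy1hi cells and 314, 526, 435 and 462 in Thy1- cells, a log2 fold change of 1.37 (SE 0.28, adjusted p 0.0357, or 0.000783 with the block). Top2a rose by 0.92 (SE 0.20, adjusted p 0.0476, or 0.00392 with the block), and neither gene overlapped between the populations. Both calls without the block were lost under several alternatives: leaving out any single Thy1hi or Thy1- library ended both, and without Thy1hi replicate 2 the mitosis gene Kif23 was called instead (1.05, adjusted p 0.043). Mki67 differed by 0.85 (SE 0.24, adjusted p 0.202, or 0.015 with the block).

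The cyclins and their kinase differed by 0.82 to 1.11, with Ccnb1 and Cdk1 called in the blocked fit. Ccna2 (cyclin A2, chromosome 3 from 36564865 to 36572150) had 315, 171, 285 and 252 in Thy1hi cells and 124, 189, 113 and 148 in Thy1- cells. In the second pair the order was turned, and Ccna2 was not called (adjusted p 0.057 with the block). Of the 5 mitotic and checkpoint kinases only Bub1 was called with the block. Bub1b, which delays anaphase until chromosomes are attached, had 258, 250.3, 302 and 311 against 179, 234, 159 and 199, with no overlap but without a call (0.55, adjusted p 0.0538 with the block).

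Both genes that act with the anaphase-promoting complex, its activator Cdc20 and its E2 enzyme Ube2c, were called with the block. Cdc20 had 185, 132, 150.4 and 139 in Thy1hi cells and 90, 118, 52.9 and 77.9 in Thy1- cells (0.88, SE 0.21, adjusted p 0.0328 with the block). Of the 10 kinesin, kinetochore and spindle genes, 8 were called with the block, all but Kif20a and Cenpf. Cenpf (chromosome 1 from 189640606 to 189688086), a kinetochore protein, had 900, 774, 1288 and 729 against 494, 989, 606 and 595, so that Thy1- replicate 2 lay above 3 Thy1hi libraries (0.47, adjusted p 0.212 with the block).

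Pair by pair, 16 of 19 replication genes, 19 of 23 mitosis genes and 3 of 3 D cyclins were higher in the Thy1hi library of all 4 pairs, against 13.6% of all genes tested. The median log2 difference of the mitosis genes was 1.14, 0.19, 1.30 and 0.83 in pairs 1 to 4, and that of the replication genes 1.09, 0.55, 0.76 and 0.66, while over all genes tested it was between -0.07 and 0.01. The second pair was the one in which mitosis genes differed least. All 4 mitosis genes that were not higher in every pair (Ccna2, Ccnb2, Plk1 and Cenpf) failed in it alone. Of the replication genes, Gins2 failed in pair 3, Ccne1 in pair 2 and Rfc4 in pairs 2 and 4. Without each pair in turn the blocked fit called 14, 31, 13 and 15 members. Over all genes those fits called 357, 324, 208 and 262 higher and 345, 272, 221 and 386 lower. With all 4 pairs it called 589 and 548.

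The D cyclins shared this difference to a lesser degree. Ccnd1 had 560, 419, 543 and 989 normalized counts in Thy1hi cells and 288, 271, 339 and 713 in Thy1- cells (0.68, adjusted p 0.0057 with the block). Ccnd2 had 3713, 2712, 3433 and 5753 against 2662, 2168, 2910 and 4445 (0.35, adjusted p 0.0593 with the block), and Ccnd3 had 230, 187, 143 and 233 against 136, 130, 105 and 173 (0.54, adjusted p 0.0383 with the block). For each of the 3 genes the libraries of the populations overlapped, while each Thy1hi library was above the Thy1- library of its own number. For Ccnd1 and Ccnd2 replicate 4 was the highest library in both populations.

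Among genes of the same pathways that are not members, the blocked fit called 13 of 30 other replication genes, 18 of 30 other mitosis genes and 3 of 17 other G1 genes higher and none lower. Without the block 2, 2 and 1 were called: Lig1 (0.90, adjusted p 0.0339), the ligase of replication, and Chaf1a (0.94, adjusted p 0.0357), a histone chaperone, Incenp (1.14, adjusted p 0.0259) and Tacc3 (1.12, adjusted p 0.0357) of the mitotic spindle, and E2f7 (1.20, adjusted p 0.0357), a repressor of the E2F family. Fitted levels of cell type markers also differed in this comparison, but none of the markers given here was called without the block. With the block, 3.42% of all genes were called higher and 3.19% lower. The 6 suprabasal keratinocyte genes were all lower in Thy1hi cells (median log2 fold change -1.30, 6 of 6 called with the block), summing to 8424 to 26622 normalized counts against 26143 to 39804 in Thy1- cells. The 6 basal keratinocyte genes were all higher (median 0.83, 5 of 6 called with the block; 183893 to 255461 against 86316 to 153184). The 5 fibroblast genes were higher (median 1.80, 4 of 5 called with the block), with sums of 163 to 1912 against 102 to 176, and the 4 Langerhans cell genes were lower (median -0.87, 4 of 4 called with the block; 433 to 1082 against 841 to 1703). The 6 HFSC genes were all lower (median -0.78, none called without the block), with sums of 682 to 987 against 1906 to 2131. No marker of these lists was at 0 in either population, and their part in the result was not tested.

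**Figure D3:**
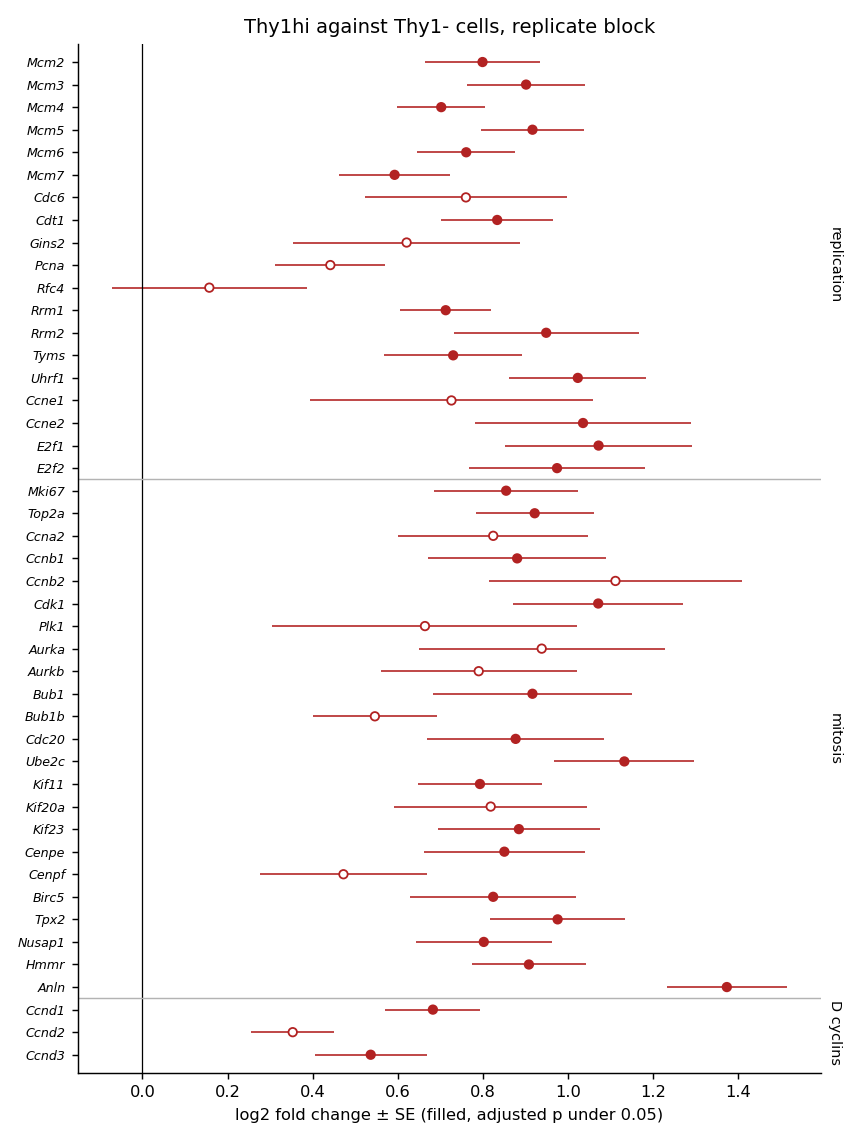
Log2 fold change of each member in Thy1hi over Thy1- cells with its SE (horizontal axis), from the fit with replicate number as a block (4 pairs), filled where the adjusted p is under 0.05. All 45 points lie to the right of 0, from 0.16 for Rfc4 to 1.37 for Anln, and 31 are filled.

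Against HFSCs the excess of the mitosis genes over the replication genes was plain in the counts. In Thy1hi cells all 23 mitosis genes were called higher (median log2 fold change 2.07, range 1.72 to 2.65) and each had every Thy1hi library above every HFSC library, as had 9.46% of all genes tested. Of the replication genes 15 of 19 were called higher (median 1.38, range 0.18 to 1.89), where 6.51% of all genes were called higher and 6.86% lower and the median over all genes was 0.02. Gins2, Pcna, Rfc4 and Rrm2 were the replication genes without a call. Without the libraries numbered 4, 21 of 23 mitosis and 14 of 19 replication genes were called higher (medians 1.99 and 1.13). In that fit 1777 of all 17204 genes were called higher and 1390 lower.

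The 5 members with the largest rise in Thy1hi cells over HFSCs were mitosis genes. Anln had 182, 151, 172 and 201 normalized counts in HFSCs, 6.27-fold under the Thy1hi level (log2 fold change 2.65, SE 0.28, adjusted p 2.57e-06). Ccnb1, cyclin B1, had 206, 167, 222 and 193 in Thy1hi cells and 38.1, 55.4, 32.1 and 20.3 in HFSCs (2.48, SE 0.31, adjusted p 1.38e-05). Ube2c followed with 2.41 (SE 0.35, adjusted p 9.12e-05), the kinetochore motor Cenpe with 2.33 (SE 0.28, adjusted p 1.25e-05) and Mki67 with 2.27 (SE 0.24, adjusted p 2.64e-06). For Ccna2, Bub1b, Cdc20 and Cenpf too every HFSC library lay under every Thy1hi library. In HFSCs Ccna2 had 73.9, 71.7, 44.9 and 68, Bub1b had 73.9, 97.8, 50.3 and 101, Cdc20 had 39.3, 41.3, 38.5 and 20.3, and Cenpf had 217, 200, 204 and 272.

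Replication genes in HFSCs were uneven in replicate 4. Mcm6 had 372, 313, 308 and 316, Rrm1 had 309, 286, 310 and 238 and Ccne2 had 25.4, 45.6, 40.6 and 54 in the 4 libraries. Uhrf1 had 254, 218, 239 and 98.8, Cdt1 had 100, 134, 106 and 30.1, and Pcna had 155, 122, 181 and 41.3. In Uhrf1, Cdt1 and Pcna the fourth library was well under the other three, in Ccne2 it was the highest and in Mcm6 it lay among them. This library also had the lowest basal keratinocyte sum of the HFSCs (70923 against 149406 to 164972) and a Langerhans cell sum of 60.3 against 2010 to 4263, and the part of its composition in these values was not tested.

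In Thy1- cells against HFSCs mostly mitosis genes were called. Here 16 of 23 mitosis genes were called higher (median 1.20, range 0.91 to 1.60) and 1 of 19 replication genes, Mcm4 (0.70, adjusted p 0.0438), with a median of 0.55, where 2.56% of all genes were called higher and 3.52% lower and the median over all genes was 0.04. The 5 largest rises were Ccnb1 (1.60, SE 0.31, adjusted p 0.00317), Cenpf (1.54, SE 0.26, adjusted p 0.0011), Cenpe (1.48, SE 0.28, adjusted p 0.00326), Kif11 (1.47, SE 0.23, adjusted p 0.000451), a spindle motor, and Mki67 (1.42, SE 0.24, adjusted p 0.0012). Kif11 had 191, 364, 251 and 206 normalized counts in Thy1- cells and 77.3, 110, 74.8 and 93.2 in HFSCs, with no overlap. Without the libraries numbered 4 the mitosis genes had a median of 1.13 with 15 of 23 called higher. The replication genes had a median of 0.23 with 1 of 19 called higher, Cdc6 in place of Mcm4. In that fit 1739 of all 17204 genes were called higher and 1240 lower, more than with all libraries. With rescaling to the same total or quantile normalization 5 replication genes were called, and the former raised the median of all genes from 0.04 to 0.16 and turned the calls over all genes from 440 higher and 606 lower to 835 and 482. Calls in one set and not in the other do not test their difference, which was not tested.

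The D cyclins did not follow the mitosis genes over HFSCs. Ccnd2 was called higher in Thy1hi cells (1.19, SE 0.27, adjusted p 0.00489) and not in Thy1- cells (0.84, adjusted p 0.0668), while Ccnd1 (0.56 and -0.12) and Ccnd3 (-0.16 and -0.70) were called in neither. Without the libraries numbered 4, 2 of 3 D cyclins were called lower in Thy1- cells, where 1240 of all 17204 genes were called lower.

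The same order of counts was seen in pathway genes that are not members. In Thy1hi cells against HFSCs 21 of 30 other replication genes, 27 of 30 other mitosis genes and 6 of 17 other G1 genes were called higher and none lower, with medians of 1.01, 1.97 and 0.50. The smallest adjusted p-values were those of Pole (1.74, adjusted p 1.97e-06), a replicative polymerase, Tacc3 (2.23, adjusted p 1.76e-06) and E2f7 (2.43, adjusted p 1.69e-06). In Thy1- cells 4 of 30, 15 of 30 and 4 of 17 were called higher, with medians of 0.34, 1.07 and 0.23. Racgap1 (1.47, adjusted p 0.000644), of the central spindle, and Pole (0.95, adjusted p 0.00326) led the mitosis and replication genes. Both comparisons use the same HFSC libraries. Basal keratinocyte genes differed unevenly from HFSCs (2 of 6 called higher in Thy1hi cells, none in Thy1- cells), and HFSC genes were lower in both (6 of 6 and 5 of 6 called). In Thy1hi cells all 6 suprabasal keratinocyte genes were fitted lower than in HFSCs (median -1.38, 1 called), as were all 4 tested pigment cell genes (median -1.83, 3 called), while in Thy1- cells the medians were -0.05 (none called) and -0.72 (1 called). The part of such differences in the cycle genes was not tested.

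**Figure D4:**
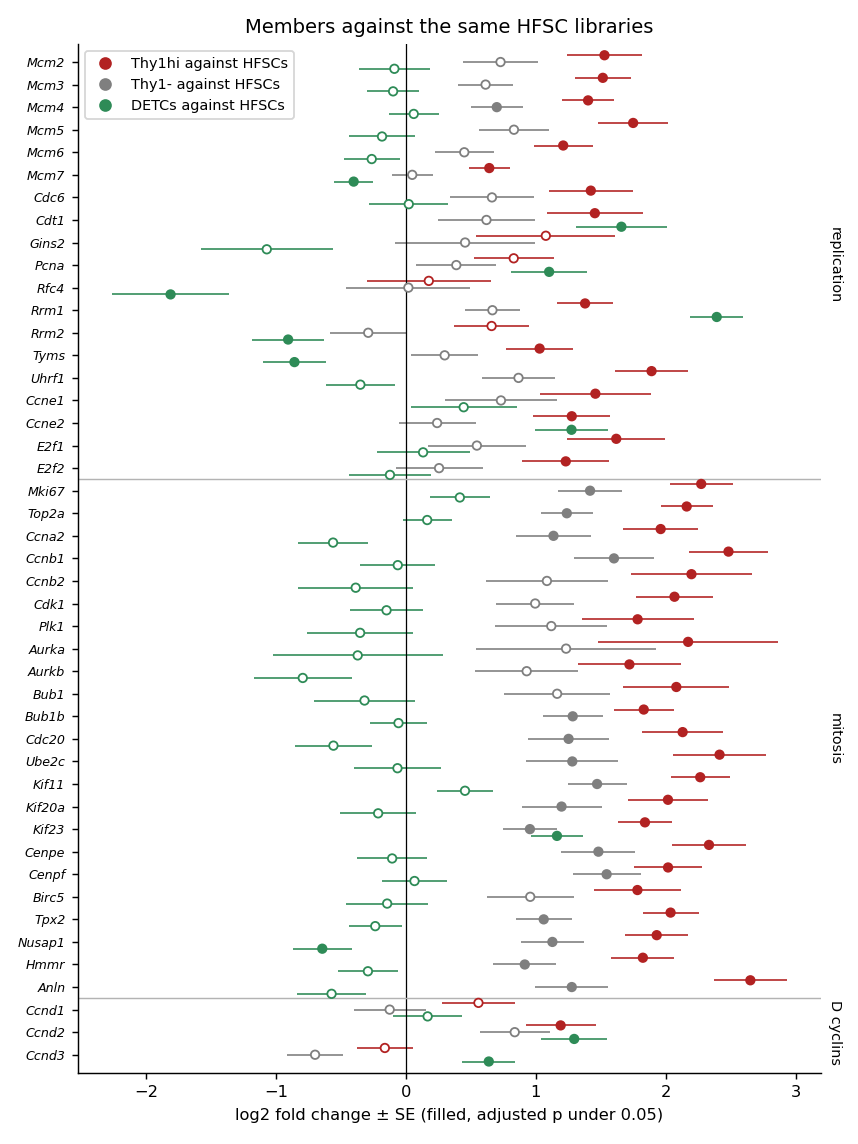
Log2 fold change with its SE (horizontal axis) of each member in Thy1hi cells, Thy1- cells and DETCs over the same 4 HFSC libraries, filled where the adjusted p is under 0.05. All 23 mitosis genes are filled for Thy1hi cells, 16 for Thy1- cells and 2 for DETCs, and in DETCs Rrm1 stands out at 2.39.

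In DETCs the mitosis genes were low. Against Thy1hi cells all 23 mitosis genes were called lower (median log2 fold change -2.27), whereas 14 of 19 replication genes were called lower and 1, Rrm1, higher (median -1.47), where 19.9% of all genes were called higher and 16.6% lower and the median over all genes was 0. The largest falls were those of Anln, which had 156, 146, 128, 54.9 and 142 normalized counts in DETCs and fell by 3.22 (SE 0.27, adjusted p 8.61e-09), and of Cdc20, which had 18.6, 28.5, 26.9, 12.3 and 32.4 and fell by 2.69 (SE 0.30, adjusted p 4.33e-07). Ccnb2, a B cyclin, fell by 2.58 (SE 0.44, adjusted p 0.000101), Nusap1, a spindle protein, fell by 2.57 (SE 0.23, adjusted p 2.03e-08) and Ccnb1 fell by 2.54 (SE 0.29, adjusted p 6.37e-07). Kif23, a motor of the central spindle, had the smallest fall of the mitosis genes (0.68, adjusted p 0.0105), and its DETC and Thy1hi libraries overlapped.

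In DETCs against HFSCs the median over the mitosis genes was -0.21 on the log2 scale, with Kif23 called higher and Nusap1 lower, and 21 of 23 without a call. The replication genes had a median of -0.10, with 4 called higher and 4 lower of 19, where 21.2% of all genes were called higher and 18.5% lower and the median over all genes was 0.02. The share of replication genes called in each direction was near that of all genes, so the count is not a result about the set. Libraries of both populations with the same number deviated together (correlation 0.170 to 0.333). Some with different numbers did so as strongly (-0.318 to 0.371), so the pairing is uncertain here. With the replicate number as a block, which leaves 3 libraries of each, 4 replication genes were called higher and 3 lower. Also called higher were 1 mitosis gene and 2 D cyclins, where 22.6% of all genes were called higher and 19.6% lower. In that fit Mcm7, Tyms and Nusap1 were no longer called and Uhrf1 was called lower (-0.53, adjusted p 0.0146). Quantile normalization turned the calls over all genes from 3644 higher and 3189 lower to 3024 and 3973 with a median of -0.15, and against Thy1hi cells from 3425 and 2864 to 2921 and 3936 with a median of -0.20. Under it the replication genes kept 4 calls in each direction and the mitosis genes had 1 higher and 2 lower.

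Ribonucleotide reductase was split between its subunits. Rrm1 had 1161, 1306, 2108, 2219 and 1052 normalized counts in DETCs, all above every library of the 4 other populations, and exceeded HFSCs 5.24-fold (log2 fold change 2.39, SE 0.20, adjusted p 1.06e-08) and Thy1hi cells 2.02-fold (1.01, SE 0.20, adjusted p 0.000449). The small subunit Rrm2 had 52.8, 73.2, 38 and 45.3 in DETC libraries 1, 2, 3 and a and 44.4 in library b, against 150, 88, 106 and 54.7 in HFSCs, and fell by 0.91 (SE 0.28, adjusted p 0.0129). The HFSC and DETC libraries of Rrm2 overlapped, through HFSC replicate 4. Tyms, thymidylate synthase, fell by 0.86 (SE 0.24, adjusted p 0.00843, and 0.106 with the block).

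Of the licensing and firing factors 1 of 3, Cdt1, was called higher in DETCs over HFSCs, and of the G1/S regulators 1 of 4, Ccne2. Cdt1 had 202, 256, 194, 424 and 269 normalized counts, above every HFSC library (1.66, SE 0.35, adjusted p 0.00082). Ccne2 had 101, 67.1, 106, 119 and 106 and rose by 1.27 (SE 0.28, adjusted p 0.00112), while Ccne1, the other cyclin E, was not called (0.44). Pcna had 270.1, 217, 255, 246 and 197 and rose by 1.10 (SE 0.29, adjusted p 0.00507). The clamp loader subunit Rfc4 went the other way, with 19.6, 13.2, 17.4, 1.37 and 16.8 against 38.5 to 44.5 in HFSCs, and fell by 1.81 (SE 0.45, adjusted p 0.00322). Of the MCM genes only Mcm7 was called, and it fell by 0.40 (SE 0.15, adjusted p 0.0392, and 0.111 with the block).

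The remaining replication and mitosis genes given by library were not called between DETCs and HFSCs without the block. Mcm6 had 309, 235, 272, 219.5 and 341 normalized counts, and Uhrf1 had 165, 160, 165, 119 and 142. Ccna2 had 51.9, 58, 25.3, 34.3 and 54, Bub1b had 61.6, 114, 64, 61.7 and 84.1, and Cenpf had 176, 242, 220, 207 and 346. The populations overlapped in all 5. Kif23 was the 1 mitosis gene to rise, with 163, 238, 176, 295 and 231 against 98.1, 90.1, 89.8 and 106 in HFSCs (1.16, SE 0.20, adjusted p 9.94e-05), and no library overlapped. Nusap1 fell by 0.64 (SE 0.23, adjusted p 0.0294, and 0.0723 with the block).

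Of the D cyclins Ccnd2 and Ccnd3 rose in DETCs over HFSCs. Ccnd2 had 3762, 3588, 4527, 4942 and 3549 normalized counts in DETCs and 1868, 1869, 2241 and 936 in HFSCs (1.29, SE 0.25, adjusted p 0.000399). Ccnd3 had 388, 299, 402, 366 and 263 against 247, 207, 265 and 165 (0.64, SE 0.20, adjusted p 0.0162), and also exceeded Thy1hi cells (0.80, SE 0.20, adjusted p 0.00356). Ccnd1 had 442, 513, 511, 416 and 401 in DETCs and 461, 349, 542 and 307 in HFSCs, with no call (0.17). Of the 3, Ccnd2 and Ccnd3 were thus called higher in DETCs over HFSCs, while 21 of 23 mitosis genes had no call between these populations.

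Outside the members, 6 of 30 other replication genes were called higher and 6 lower in DETCs over HFSCs, 6 of 30 other mitosis genes higher and 1 lower, and 4 of 17 other G1 genes higher and 3 lower. Over all genes 21.2% were called higher and 18.5% lower. Apart from the mitosis genes called lower, the counts were near these shares and are not a result about the sets. Named by their adjusted p, Orc1 (2.92, adjusted p 3.39e-05), a subunit of the origin recognition complex, Cenpa (4.82, adjusted p 1.86e-10), the centromeric histone, and Rbl2 (1.32, adjusted p 7.9e-05), a relative of the retinoblastoma protein, rose, and Cdc25b (-1.74, adjusted p 4.76e-06), a phosphatase that activates Cdk1, fell. Library a had the lowest basal keratinocyte sum of the DETCs (11941 against 40843 to 56893) and the lowest mitosis mean (-0.67 relative to HFSCs). It also had 0 reads of Aurka, which allows up to 4.12 normalized counts by counting error alone, 4.12 of Gins2 and 1.37 of Rfc4, together with the highest Rrm1 and Cdt1. The part of keratinocyte RNA in the DETC values was not tested. Without library a, 15 replication and 23 mitosis genes were called lower against Thy1hi cells, and 4 replication genes were called higher and 3 lower against HFSCs.

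**Figure D5:**
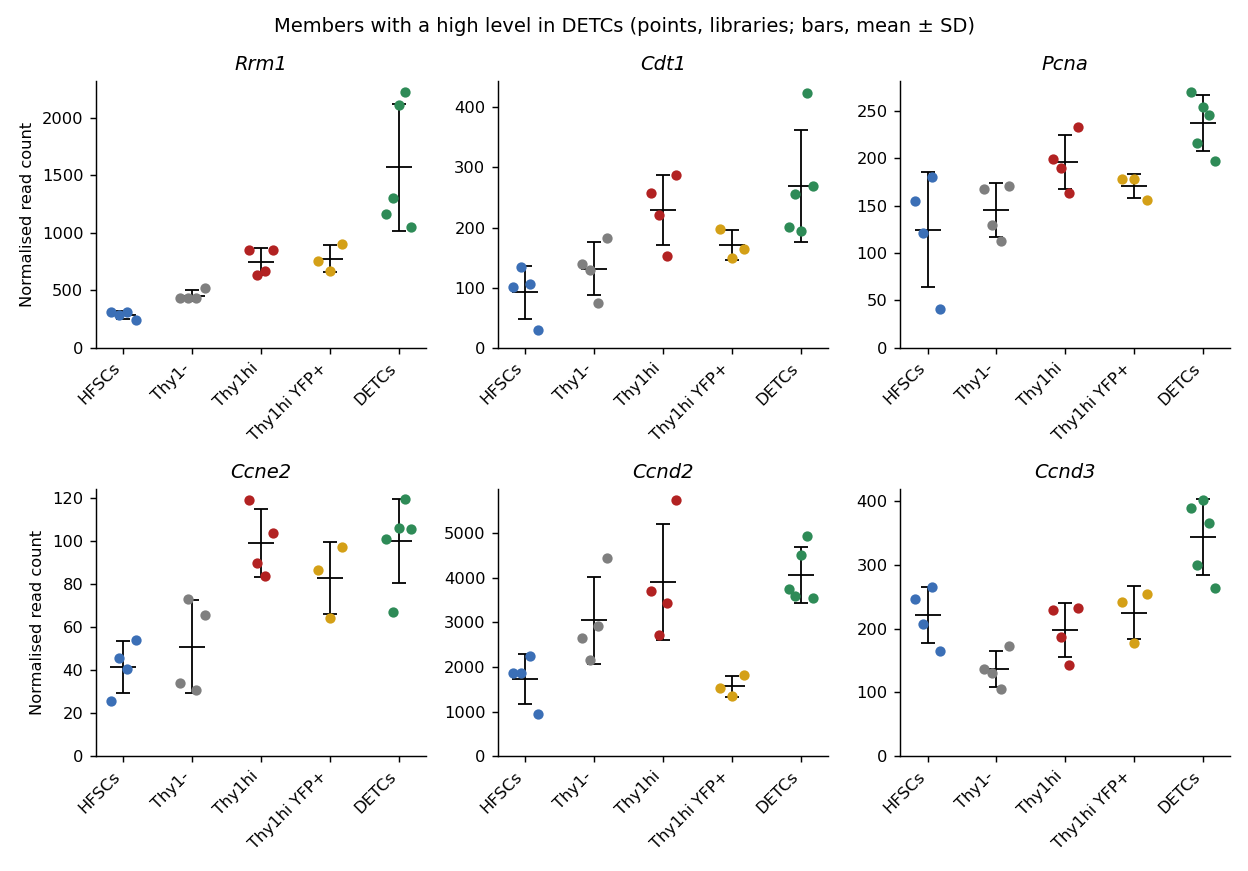
Normalized read counts (vertical axes, from 0) of Rrm1, Cdt1, Pcna, Ccne2, Ccnd2 and Ccnd3 in each library (points), with mean and SD as bars. All 5 DETC libraries lie above the HFSC libraries for the first 5 genes, as they do for 18.6% of all genes tested, and for Ccnd2 the 3 YFP+ libraries (1357 to 1829) lie below the Thy1hi and Thy1- libraries.

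YFP+ cells carry the mark of Thy1-driven recombination and were sorted for the same surface markers as Thy1hi cells. Between them no member was called by limma, where 0.0116% of all genes were called higher and 0% lower. On whole reads edgeR called none of the members and DESeq2 called 1, where DESeq2 called 59 of all genes higher and 43 lower. At an unadjusted p under 0.05 there were 2 of 45 members, against 9.07% of all genes tested. They were Ccna2 (0.69, adjusted p 0.52) and Ccnd2 (-1.27, SE 0.29, adjusted p 0.137). Over the replication genes the median difference was -0.02 (log2) and over the mitosis genes 0.42, with 21 of 23 above 0, against -0.04 over all genes tested. Ccnd2 had 1518, 1357 and 1829 normalized counts in YFP+ cells, below every Thy1hi library. DESeq2 called it lower (-1.32, adjusted p 0.00552), edgeR did not (adjusted p 0.165), and limma called it without the libraries numbered 4 (-1.07, adjusted p 0.0387).

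Against Thy1- cells YFP+ cells had 8 members called higher, 1 of 19 replication genes and 7 of 23 mitosis genes, where 0.546% of all genes were called higher and 0.215% lower. The medians were 0.73 and 1.22, against -0.08 over all genes, and all 23 mitosis genes were above 0. Rrm2 had 291, 193 and 222 normalized counts in YFP+ cells and 57.2, 99.5, 56.8 and 105 in Thy1- cells (1.59, SE 0.31, adjusted p 0.0231). Cdk1, the mitotic kinase, had 199, 226 and 278 against 73, 110, 63.1 and 77 (1.54, SE 0.32, adjusted p 0.0281). Ccna2 had 300, 368 and 592 in YFP+ cells (1.51, SE 0.31, adjusted p 0.0252), Ccnb1 had 204, 272 and 435 (1.44, SE 0.33, adjusted p 0.0449) and Nusap1 had 201, 275 and 382 (1.28, SE 0.26, adjusted p 0.0242). None of these 5 overlapped with Thy1- cells, where 7.76% of all genes tested had every YFP+ library above every Thy1- library, and the exact permutation p of each was 0.0571, the smallest that 3 against 4 libraries allow. The count rested on single libraries: it was 2 without YFP+ replicate 1, 0 without YFP+ replicate 3, and 1, 0 and 5 without Thy1- replicates 1, 3 and 4.

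The other members given by library had 885, 565 and 834 normalized counts of Mcm6 in YFP+ cells, 198, 149 and 164 of Cdt1, 178, 178 and 156 of Pcna, and 754, 670.4 and 899 of Rrm1. Uhrf1 had 943, 537 and 717, Ccne2 had 86.7, 64.3 and 97.1, Bub1b had 294, 330 and 341, Cdc20 had 140, 203 and 228, Cenpf had 890.1, 1058 and 1964, and Anln had 766, 680.4 and 1517. For the mitosis genes among them replicate 3 was the highest YFP+ library. Ccnd1 had 530.3, 392 and 483 and Ccnd3 had 242, 177 and 255. Suprabasal keratinocyte genes hardly differed between YFP+ and Thy1- cells (median log2 fold change 0.04, none of 6 called) and basal genes were higher (0.75, none of 6 called). The part of these genes in the result was not tested. Fibroblast genes were lower than in Thy1hi cells (-2.24, none of 5 called), with sums of 34.7 to 187, and suprabasal genes were higher (1.29, 6 of 6 above 0 and none called), with sums of 15435 to 57653 against 8424 to 26622. Their part in the difference between YFP+ and Thy1hi cells was not tested. YFP+ and Thy1hi cells are compared with the same Thy1- libraries.

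Among the other pathway genes 3 of 30 replication, 7 of 30 mitosis and 1 of 17 G1 genes were called higher in YFP+ over Thy1- cells and none lower. They included Tk1 (1.31, adjusted p 0.0237), thymidine kinase, Tacc3 (1.37, adjusted p 0.0127) and E2f8 (1.32, adjusted p 0.0242), another repressor of the E2F family.

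Ordered by the mean over libraries, 21 of 23 mitosis genes were highest in YFP+ cells and 2 in Thy1hi cells, and for all 23 these populations held the first and second place. Their libraries overlapped: the mean log2 level of the mitosis genes was 8.00, 8.35 and 8.73 in YFP+ replicates 1 to 3 and 7.76 to 8.15 in Thy1hi cells. Without single libraries the mitosis median of YFP+ over Thy1hi cells was 0.19 to 0.58. Of the 19 replication genes 8 were highest in YFP+ cells, 7 in Thy1hi cells and 4 in DETCs. The 4 were Cdt1, Pcna, Rrm1 and Ccne2. HFSCs and DETCs took the last places for 22 of 23 mitosis genes, the exception being Kif23, and for 14 of 19 replication genes. The neighbours YFP+ and Thy1hi cells did not differ by test for any replication or mitosis gene, and HFSCs and DETCs did for 2 of 23 mitosis genes. For the D cyclins the order was another one, with Ccnd1 highest in Thy1hi cells, Ccnd2 and Ccnd3 highest in DETCs, and Ccnd2 lowest in YFP+ cells.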

How the data were processed

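The authors deposited 1 table of normalized counts, a signal per gene: reads aligned to mm10 with STAR, counted over Ensembl genes by featureCounts, then scaled by 1 DESeq2 size factor per library. Strand use, the versions of STAR and featureCounts and the assignment of libraries to the 2 preparation batches are not given in the sources used here, so no batch term was fitted. Multiplied by its size factor, 100% of each library's values came out as whole reads within 0.1 read. Thy1- replicate 4 was put back from hyphen-free name order first. Genes with at least 10 normalized counts in at least 3 libraries (17204) were tested with limma 3.58.1 (R 4.3.3) on log2(count + 1), a scale on which changes of low genes are understated, with 1 mean per population over 20 libraries, a two-sided test and Benjamini-Hochberg adjustment over all genes at 0.05; adjusted p-values are limma's unless another tool is named. edgeR 4.0.16 and DESeq2 1.42.0 ran on the whole reads. Single members were also compared by exact permutation of libraries. The limma fit without a block was tested on simulated reads, and the fits with a block were not.

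Members and lists were chosen with earlier results of these data known. Values by library were given for Mki67, Top2a, Mcm2, the member with the highest mean in each subset, the D cyclins and the members called in Thy1hi against Thy1- cells. In other comparisons at most 5 called members in each direction, by size of change, were given, and from each list of other pathway genes up to 3 called genes. Genes given beyond these were chosen after their values were seen. Pairing by replicate number was checked from deviations from population means: same-numbered libraries correlated at 0.293 to 0.716 over 4 pairs of Thy1hi and Thy1- cells and at 0.170 to 0.333 over 3 pairs of DETCs and HFSCs, and elsewhere at least 1 pair was under 0.1. Libraries with different numbers correlated at -0.651 to 0.514 and at -0.318 to 0.371 in these comparisons. Thy1hi replicate 2 with Thy1- replicate 1 (0.514) exceeded the same-numbered pairs 1 (0.293) and 3 (0.301), so the check does not establish the pairing. Promoter windows were kept where they started within 500 bases of the gene's principal start. Intervals and limits given cover counting error only. Python 3.11.15, numpy 2.4.6, pandas 2.3.3, scipy 1.17.1 and matplotlib 3.10.9 were used.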

Additional observations from a re-analysis of the deposited data

Results flagged for a closer look

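Of 80 groups of 4 or 5 libraries, 7 had a library far from the others in the values given by library or in the set means, and chance alone flags about 1 group in 20. Replicate 4 of the Thy1- cells had 520 normalized counts of Mcm2 against 269 to 274 in the others, 522 of Rrm1 against 429 to 432, and 713 of Ccnd1 against 271 to 339. Replicate 2 of the Thy1- cells had a mean log2 level of the mitosis genes of 7.56 against 6.92 to 7. Replicate 1 of the HFSCs had 372 normalized counts of Mcm6 against 308 to 316, replicate 4 of the HFSCs had 20.3 of Cdc20 against 38.5 to 41.3, and DETC library a had 54.9 of Anln against 128 to 156.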

How the results depend on the processing

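Of 453 repeats of the counts and set medians under other settings, 410 kept their direction and stayed within 1.5 times the count or within 1 SD of the median, and no member named with values reversed. Members called between Thy1hi and Thy1- cells (2) numbered 1 with a pseudocount of 0.1, 0 without the filter on low values, 0 with rescaling to the same total without Rn45s, 1 with quantile normalization, 1 with edgeR, 10 with DESeq2, 1 with rows in the deposited order, and 0 to 1 without single libraries. With a replicate block they numbered 8 over all populations and 31 in the fit of these populations alone, in which pairing by number rests on correlated deviations. Over all genes limma called 20 higher and 38 lower, DESeq2 100 and 110, and these blocked fits 88 and 117, and 589 and 548. Alternatives chosen after seeing the data gave 0 members without the libraries numbered 4, and 14, 31, 13 and 15 with the block and without pair 1, 2, 3 or 4. Calls over all genes were also fewer: 5 higher and 11 lower without the libraries numbered 4. Without a pair they were 357, 324, 208 and 262 higher and 345, 272, 221 and 386 lower. Members called in Thy1- cells against HFSCs (17) numbered 27 with the replicate block over all populations and 6 with that of the populations alone, and the replication median (0.55) was 0.23 without the libraries numbered 4. With the block of the populations alone, 76 of all genes were called higher and 253 lower, against 440 and 606 without it. Same-numbered libraries of these populations correlated at -0.225 to 0.165, and the labels do not say whether the numbers are matched. Why the calls fell with this block was not tested. The mitosis median of Thy1hi cells over HFSCs (2.07) was 1.82 with a pseudocount of 10. In YFP+ against Thy1hi cells 1 member was called by DESeq2 and 1 without the libraries numbered 4. Members called in YFP+ against Thy1- cells (8) numbered 13 with a pseudocount of 10, 5 without the filter, 15 with a mean of at least 50, 5 with the same total, 28 with DESeq2, 4 with only these populations, 24 and 2 with the replicate block over all and over these populations, 5 in the deposited order, 20 without the libraries numbered 4, and 0 to 10 without single libraries. Over all genes limma called 94 higher and 37 lower in YFP+ against Thy1- cells, and DESeq2 390 and 162. Without the libraries numbered 4 limma called 281 and 192. The cause of these changes was not tested. With 3 to 5 libraries a population and counts under 100 for many members, small differences were not detectable.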
